A study of Mus musculus with 18 samples.

Results

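The genes described here encode the secreted and membrane-bound proteases of the extracellular matrix and the inhibitors that hold them in check. They were chosen by name, as every mouse gene whose symbol is Mmp, Adamts or Timp followed by a number, on chromosomes 1 to 19. This gave 45 genes (23 Mmp, 19 Adamts and 3 Timp) among 49943 genes of the RefSeq annotation. Timp1, which lies on the X chromosome, was left out. DNA methylation was read at CpG sites inside these genes or within 5 kb of either end. A site was tested where each of the 2 pools compared held at least 10 reads. This left 4097 member sites of 1876099 tested in gonadal adipose tissue, 3402 of 1569349 in hypothalamus and 3463 of 1628817 in liver. In each tissue 43 of the 45 genes had a tested site, and Mmp12 and Mmp1a had none.

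The study exposed C57BL/6 mice to bisphenol A (BPA), a plasticizer monomer with oestrogen-like activity, before birth. Pregnant dams received BPA in corn oil by gavage at 5 mg/kg/day, from day 1 to day 20 after conception, while control dams received corn oil alone. Male offspring were sampled at 3 weeks of age, with 3 control and 3 BPA samples from each of gonadal adipose tissue, hypothalamus and liver, which makes 18 samples in 6 groups. Control offspring came from 3 litters and BPA offspring from 4 litters, and the labels do not tie samples to litters.

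The assay was reduced representation bisulfite sequencing, in which the enzyme MspI cuts DNA at CCGG and bisulfite then separates methylated from unmethylated cytosine. The authors' tables hold 1 pooled value per treatment and tissue, so each group is 1 pool of 3 samples here. The pools carry the numbers 0 and 1. Number 0 was taken as control and 1 as BPA only because a label names control before BPA, and every BPA direction below turns if that order is wrong. All tests compare pooled reads, and none measures the spread between animals. Adipose member sites had a median of 155 reads (control) and 172 reads (BPA), against 105 and 108 in hypothalamus and 152 and 139 in liver. Member sites whose smaller pool held 10 to 14 reads averaged 44.4% in adipose control, against 50% for the 120 sites with 5 to 9 reads that were left out. The gap was wider in hypothalamus (42.7% against 55.5%) and was 37.0% against 41.0% in liver.

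Matrix metalloproteinases (MMPs) are zinc enzymes made as inactive precursors, and between them they can cut most matrix proteins. ADAMTS proteases share the zinc site and carry thrombospondin repeats that bring them to matrix substrates. Tissue inhibitors of metalloproteinases (TIMPs) plug the active site. In fat tissue these enzymes reshape the matrix around growing adipocytes and vessels, and in brain they act on perineuronal matrix and synapses. Methylated CpG sites are common in gene bodies, while CpG-dense gene starts are usually free of methylation.

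The assay reads only DNA near CCGG, so the letters around a gene's start bear on whether it was measured. The RefSeq promoter table (GRCm38.p6) held 34 windows for 31 of the 45 genes, each from 250 bases before to 50 bases after a start, and no window for the other 14 genes. Of the 34 windows, 16 held 7 or fewer CG and 18 held 10 or more. The MspI motif CCGG was present in 20 windows (58.8%), against 52.8% of all 32817 windows in the table. All 17 member windows with a tested site held CCGG. The 250 bases before the start are shown for 4 genes that cover this range, 5′ to 3′ on the strand of the gene. Mmp24 and Timp2 have CpG-dense starts, Mmp23 had the widest spread between tissues, and Mmp3 stands for the CpG-poor windows in which no site was tested. Capitals mark CG, and in Mmp3 also TGAGTCA.
Mmp24, chr2:155775092-155775341, plus strand: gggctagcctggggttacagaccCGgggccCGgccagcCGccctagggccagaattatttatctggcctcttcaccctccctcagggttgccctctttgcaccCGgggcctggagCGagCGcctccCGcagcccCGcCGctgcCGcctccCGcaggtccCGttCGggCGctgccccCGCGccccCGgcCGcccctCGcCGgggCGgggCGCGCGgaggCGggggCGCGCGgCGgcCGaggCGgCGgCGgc
Mmp23, chr4:155653385-155653634, minus strand: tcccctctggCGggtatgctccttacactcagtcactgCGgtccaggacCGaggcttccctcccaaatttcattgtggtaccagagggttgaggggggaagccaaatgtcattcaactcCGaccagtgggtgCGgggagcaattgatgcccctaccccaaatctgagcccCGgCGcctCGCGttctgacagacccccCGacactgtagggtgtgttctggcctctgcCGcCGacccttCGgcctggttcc
Timp2, chr11:118355412-118355661, minus strand: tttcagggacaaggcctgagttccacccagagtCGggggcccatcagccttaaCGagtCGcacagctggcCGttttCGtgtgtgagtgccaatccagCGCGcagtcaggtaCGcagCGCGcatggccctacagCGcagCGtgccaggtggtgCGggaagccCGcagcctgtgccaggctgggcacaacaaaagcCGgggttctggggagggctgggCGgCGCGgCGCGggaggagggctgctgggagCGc
Mmp3, chr9:7445572-7445821, plus strand: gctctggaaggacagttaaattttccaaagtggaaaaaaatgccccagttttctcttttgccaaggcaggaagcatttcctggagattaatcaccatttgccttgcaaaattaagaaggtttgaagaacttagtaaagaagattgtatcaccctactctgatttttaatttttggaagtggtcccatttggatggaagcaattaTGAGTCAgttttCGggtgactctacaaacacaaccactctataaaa

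The Mmp24 stretch holds 33 CG. Mmp24 encodes a membrane-type MMP known from brain. Its 26 tested sites there averaged 1.08% (control) and 0.239% (BPA) methylation in adipose tissue. The 23 sites in hypothalamus averaged 0.0761% and 1.09%, and the 14 sites in liver 0.873% and 1.09%. The Timp2 stretch holds 21 CG, and its 11 sites averaged 0.904% and 0.561% in adipose control and BPA, 0.618% and 0.422% in hypothalamus, and 2.44% and 2.03% in liver. Both starts were therefore close to unmethylated in all 6 pools. The Mmp23 stretch holds 13 CG and was read at 8, 7 and 7 sites in adipose, hypothalamus and liver. Mmp23 encodes an MMP anchored in the membrane by its N-terminal end. Its sites averaged 1.06%, 13.7% and 6.37% in the control pools of these tissues, and 2.06%, 4.35% and 0% in the BPA pools, with as few as 16, 15 and 10 reads at a site. The Mmp3 stretch holds 1 CG and no CCGG, and no site in it was tested.

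At least 2 sites covered in all 6 pools were found in 15 windows of 14 genes, and all 15 had a control mean under 20% in all 3 tissues. The range between the 3 tissues had a median of 1.47 points, against 0.713 points for all 10967 such windows. A range over 20 points occurred in 5.71% of all windows and in 0 of the 15. The widest ranges among them were at the Mmp23 windows (1.36%, 14.5% and 5.58% in adipose, hypothalamus and liver at the first), followed by Timp3 (0.820%, 1.61% and 3.76%), Mmp25 (2.65%, 0% and 0%) and Adamts1 (0.229%, 0.202% and 2.69%). No site in a member window passed the test between BPA and control in any tissue.

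The CpG-poor windows shared other motifs. TGAGTCA, the consensus bound by AP-1 (Fos and Jun proteins, the classical inducers of several MMP genes), was searched on both strands. It was found in 7 of 34 member windows (20.6%), against 5.20% of all windows of the same length. These 7 belong to Mmp10, Mmp12, Mmp13, Mmp1a, Mmp1b, Mmp3 and Mmp7, all among the 16 windows with few CG, while 0 of the 18 CpG-dense windows held it. TATAAA, also searched on both strands, was found in 11 windows (32.4%), against 13.6% of all. All 7 genes lie in 1 cluster of 10 MMP genes on chr9:7272514-7699585, which also holds Mmp8, Mmp20 and Mmp27. The 12 windows of this cluster hold 0 to 7 CG, and 1 holds CCGG. Its 51 tested sites in adipose tissue lie in 8 of the 10 genes or within 5 kb of them. They averaged 84.8% in the control pool, against 40.7% for the sites of the other members. In hypothalamus the 40 cluster sites averaged 85.7%, and in liver the 39 sites averaged 80.3%. No site in these 12 windows was tested. The tested sites closest to a start in the cluster were in Mmp3, just downstream of its window, at chr9:7445917 and chr9:7446067, with 92.2% and 77.4% in adipose control.

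**Figure D1:**
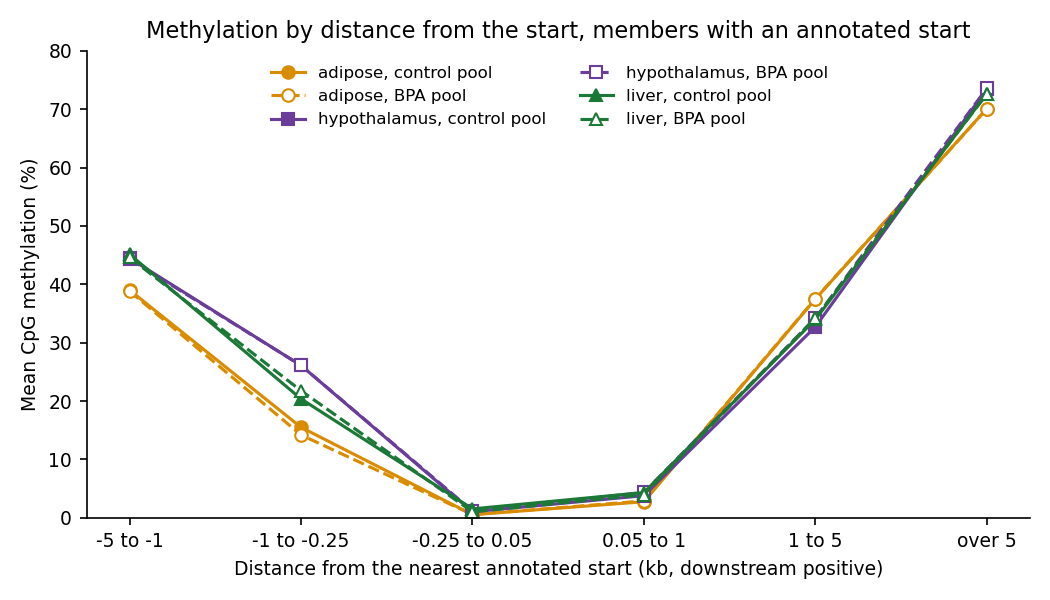
Mean CpG methylation (%, vertical axis) of member sites by distance from the nearest annotated start (kb, horizontal axis, downstream positive), for the 31 genes with a start in the promoter table. Lines stand for the 6 pools. Not all 31 genes enter at each distance. Around the start, sites of 16 genes were tested in adipose tissue and in hypothalamus, and of 15 in liver. The other distances hold sites of 9 to 24 genes. All 6 lie below 2% around the start and near 70% or above beyond 5 kb.

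Away from the start, methylation was higher in all pools. In the adipose control pool the mean was 0.546% over 267 sites of 16 genes around the start. It was 2.76% between 0.05 and 1 kb downstream, and 70.1% beyond 5 kb. Starts without a tested site, such as those of the chromosome 9 cluster, do not enter the mean around the start. Hypothalamus gave 1.05%, 3.8% and 73.5% at the same distances, and liver 1.53%, 4.34% and 72.7%. From 5 to 1 kb upstream the means were 39.0%, 44.5% and 45.1% in adipose, hypothalamus and liver control, and 38.8%, 44.3% and 44.6% in the BPA pools. In adipose tissue 47.9% of member sites were under 20% methylated, against 38.0% of all tested sites. Of the adipose member sites, 848 (20.7%) also lie inside another gene. All 56 tested sites of Timp3 lie in Syn3, all 6 of Timp4 in Syn2 and 89 of 144 of Mmp23 in Mib2. The annotation used gives no exons, so sites are placed by gene and distance only.

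Levels in the control pools were compared for the 39 genes with at least 5 sites covered in all 6 pools, as a mean over those sites. The median gene stood at 44.7% in adipose tissue, 47.3% in hypothalamus and 46.4% in liver. All protein-coding genes treated alike had medians of 34.1%, 35.7% and 35.0%. Adipose tissue was lowest for 21 of the 39 genes (53.8%, against 41.0% of all protein-coding genes), hypothalamus for 7 and liver for 11. With sites weighted by their reads, adipose tissue was lowest for 15 genes, hypothalamus for 14 and liver for 10. These gene means are descriptions, and each difference of a few points between tissues is small beside the range among genes.

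**Figure D2:**
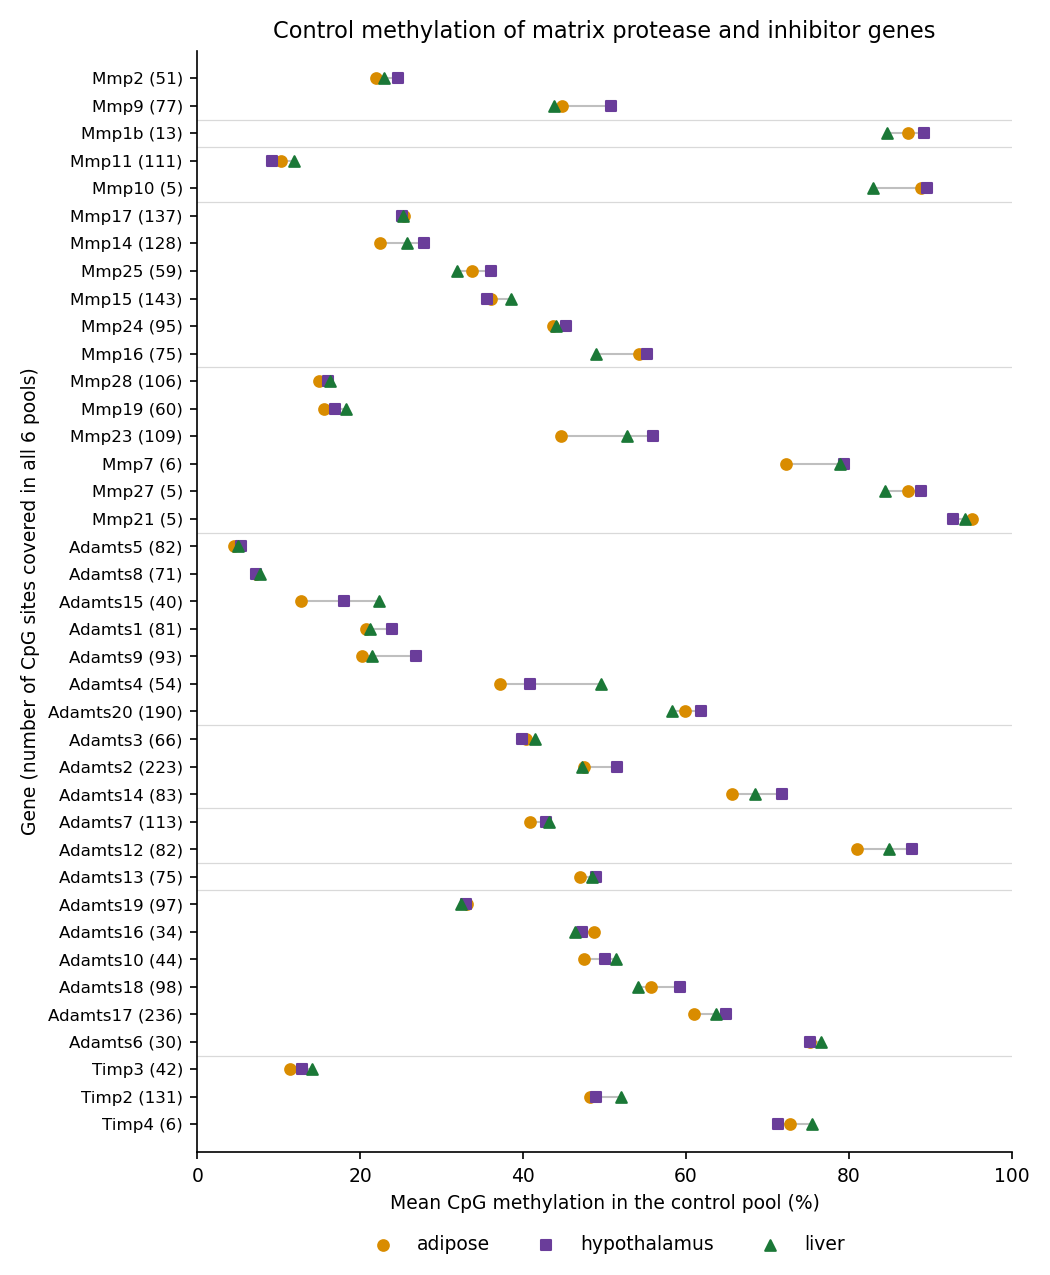
Mean CpG methylation of 39 genes in the control pools (%, horizontal axis), with the number of shared sites in brackets. Circles are adipose tissue, squares hypothalamus and triangles liver, and grey lines separate the role groups. The genes run from Adamts5 (4.47% in adipose) to Mmp21 (95.1%), and the 3 tissues mostly lie within a few points of each other.

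Among the gelatinases, which cut denatured collagen and basement membrane, Mmp2 averaged 21.9%, 24.6% and 22.9% in adipose, hypothalamus and liver. Mmp9 averaged 44.7%, 50.8% and 43.8%, which put hypothalamus 6.54 points above the mean of the other tissues. Of the genes grouped as collagenases, Mmp1b averaged 87.3%, 89.3% and 84.7%. The stromelysin Mmp10, which cuts proteoglycans and activates other MMPs, averaged 88.8%, 89.6% and 82.9%, and liver lay 6.30 points below the others. Mmp11, a furin-activated stromelysin, was low in all tissues, at 10.2%, 9.19% and 11.9%.

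The membrane-type MMPs act at the cell surface, and Mmp14 is the known activator of the Mmp2 precursor. Mmp14 averaged 22.4%, 27.8% and 25.8% in adipose, hypothalamus and liver. Mmp17, an MMP held by a lipid anchor, differed by less than 1 point between the tissues, at 25.4%, 25.1% and 25.3%. Mmp16 was the membrane-type MMP furthest below in liver, with 54.2%, 55.3% and 48.9%. Of the other MMPs, Mmp23 showed the widest gap of adipose tissue to the other tissues, a difference of -9.63 points, with 44.7%, 55.9% and 52.7%. Mmp7 (matrilysin, an MMP with a minimal domain structure) lay 6.87 points lower in adipose tissue, over 6 sites. All 6 lie in the flank beyond the end of the gene.

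The proteoglycan-cleaving ADAMTS genes, whose products cut aggrecan and versican, held some of the least methylated genes and the widest gap between tissues. Adamts5 averaged 4.47%, 5.31% and 4.99% and Adamts8 7.19%, 7.14% and 7.67% in adipose, hypothalamus and liver. Adamts15 averaged 12.7%, 18.0% and 22.3%, and Adamts4 37.1%, 40.9% and 49.6%. Both were lowest in adipose tissue and highest in liver, where Adamts4 lay 10.6 points and Adamts15 6.90 points above the other tissues. Adamts9 was highest in hypothalamus, with 20.2%, 26.8% and 21.5%. The procollagen N-proteinase Adamts14 (65.6%, 71.8% and 68.5%) and the COMP-cleaving Adamts12 (81.0%, 87.7% and 85.0%) had the same order, with adipose tissue lowest. Among the inhibitors, Timp3 was low (11.4%, 12.9% and 14%), Timp2 intermediate (48.2%, 49.0% and 52.0%) and Timp4 high (72.8%, 71.2% and 75.5%). All 3 inhibitors were highest in liver, by 1.91 to 3.48 points over the mean of the other tissues. In adipose tissue Adamts5 was the lowest and Mmp21 the highest of the genes compared, and the remaining genes lay between them.

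Single sites separated the tissues far more sharply than gene means did. Between the adipose and hypothalamus control pools, 468 of 3446 member sites (13.6%) were called, meaning an adjusted p under 0.05 in Fisher's exact test and a difference of at least 5 points. The share over all tested sites was 12.9%. Of the 468, 364 were higher in hypothalamus (10.6%, all sites 9.08%) and 104 lower (3.02%, all sites 3.79%). Between adipose tissue and liver 552 of 3506 sites (15.7%, all sites 16.5%) were called, 352 higher in liver (10.0%, all sites 8.42%) and 200 lower (5.70%, all sites 8.06%). Between hypothalamus and liver 512 of 3271 (15.7%, all sites 16.9%) were called, 194 higher in liver (5.93%, all sites 5.72%) and 318 lower (9.72%, all sites 11.2%). In either direction together, the shares of member sites were near those of the whole table. The shares split by direction were less close, and their difference from all sites was not tested. The 3 comparisons share control pools and are not independent. Scaling p for the spread between pools, which here includes the tissue differences themselves, left 27, 48 and 25 calls, and 0.914%, 1.29% and 1.3% of all sites. In bulk tissue, a different mix of cells and a different level within a cell type cannot be told apart.

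The BPA pools come from other animals and repeat the tissue comparison. Of the called member sites that the BPA pools also covered, 448 of 463 (96.8%), 517 of 548 (94.3%) and 505 of 511 (98.8%) lay in the same direction there, in the order adipose with hypothalamus, adipose with liver, and hypothalamus with liver. The same shares over all sites were 96.3%, 95.2% and 98%. Of them 66.3%, 66.2% and 68.7% were called again in the same direction, close to the 67.2%, 63.5% and 68.9% of all sites called in the control pools. Over all sites in the BPA pools, called or not, 13.4%, 15.8% and 16.7% were called. The median difference of the called member sites was 20.0, 19.1 and 19.9 points in the control pools and 17.5, 16.0 and 17.4 points in the BPA pools.

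Some of these sites lay in runs, defined as at least 4 called sites in the same direction with gaps of at most 300 bp. These held 49.6%, 39.5% and 48.6% of the called member sites in the 3 comparisons, against 50.3%, 47.2% and 48.6% of all called sites. There were 116 runs in 25 of the 43 genes (58.1%, against 50.7% of all protein-coding genes, with a median of 87 and 58 sites tested per gene), 41 between adipose tissue and hypothalamus, 33 between adipose tissue and liver and 42 between hypothalamus and liver. A gap of 1000 bp gave 112 runs in 26 genes. Run means below are over all tested sites in the span, in the order adipose, hypothalamus and liver.

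**Figure D3:**
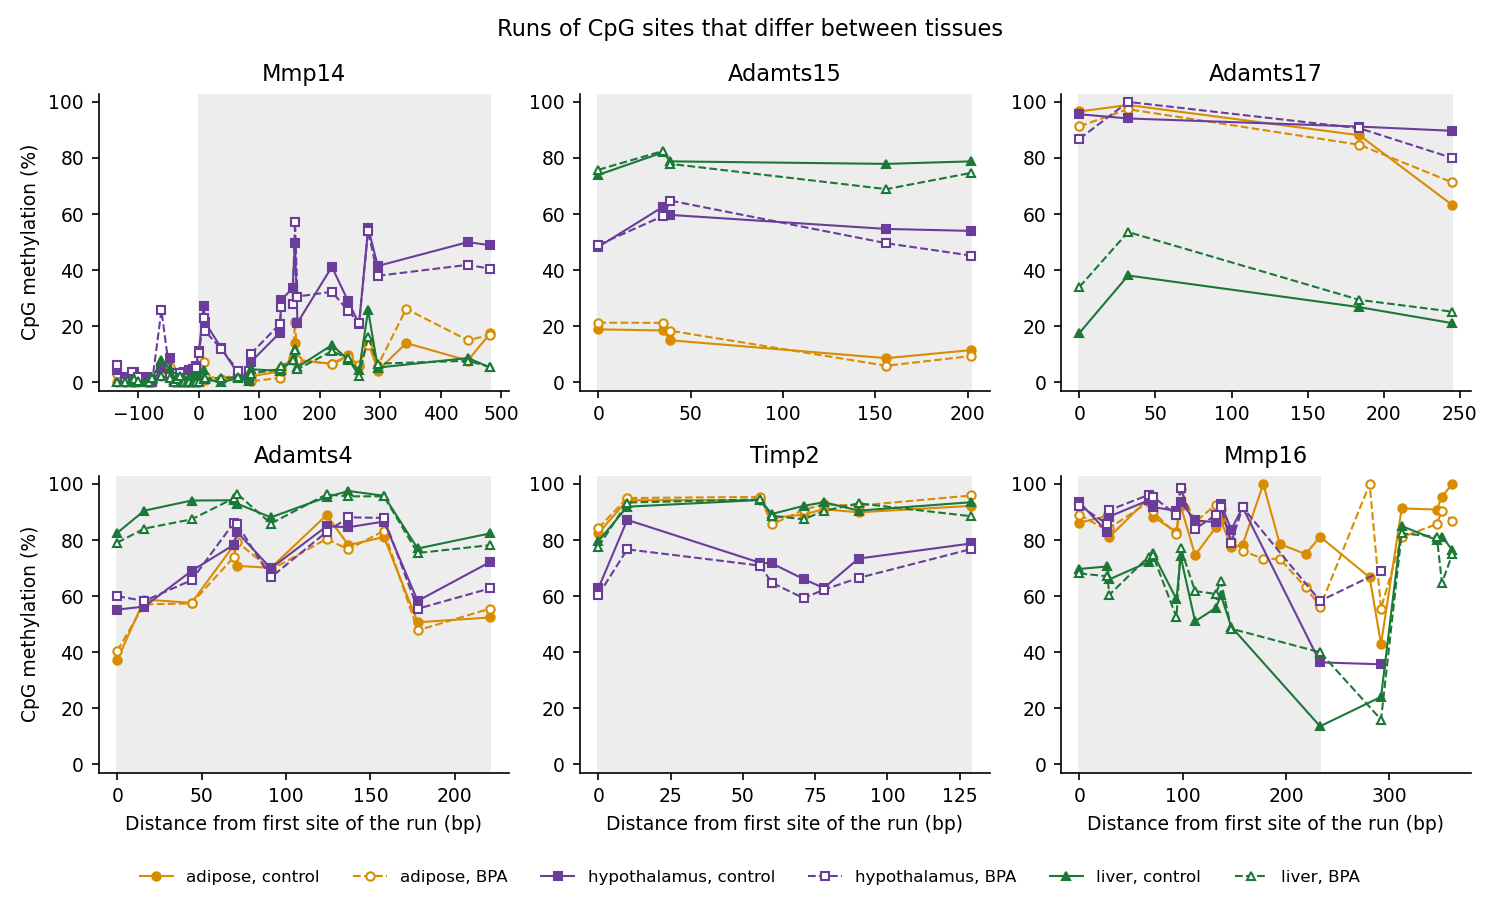
CpG methylation (%, vertical axis) along 6 runs against the distance from the first site of the run (bp, horizontal axis). Filled symbols and solid lines are control pools, open symbols and dashed lines BPA pools, with circles for adipose tissue, squares for hypothalamus and triangles for liver, and the grey band marks the run. The Mmp16 band is the longer run between adipose tissue and liver, and neighbouring sites outside a band are drawn too. In each band 1 tissue or more stands apart at most sites in both its control and its BPA pool.

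Among the runs of the membrane-type MMPs, the one with the most called sites was in Mmp14 at chr14:54432477-54432959, 879 to 1361 bp after the start. Its 16 called sites were higher in hypothalamus than in adipose tissue, with run means of 6.56%, 27.4% and 6.22% in the control pools. The BPA pools gave 7.96%, 26.2% and 5.50%, and 16 of 16 sites were called again there. At its leading site 7.77% of 206 reads were methylated in adipose tissue and 50% of 88 in hypothalamus, a difference of 42.2 points (95% interval 31.1 to 52.9, adjusted p 3.06e-13, Fisher's exact test). A second run in Mmp14, at chr14:54434107-54434273, averaged 27.5%, 64.2% and 12.9%, and 24.8%, 61.3% and 14.8% in the BPA pools. Further into the gene the order turned: at chr14:54439239-54439690 hypothalamus was the lowest, with 82.5%, 62.8% and 88.2%. Mmp14 thus held opposite tissue patterns within 1 gene body.

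In Mmp16, 11 sites at chr4:18021590-18021737 averaged 85.3%, 89.5% and 63.9%, and 88.2%, 90.1% and 64.6% in the BPA pools. Mmp17, whose gene mean was alike in the 3 tissues, held runs in both directions. At chr5:129586452-129586818 hypothalamus was lower than liver (47.0%, 32.6% and 57.8%), and at chr5:129594584-129595267 it was higher (49.7%, 67.3% and 41.8%). The even gene mean of Mmp17 therefore covers local differences of opposite sign.

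Among the gelatinases, Mmp2 had a run of 5 sites at chr8:92850156-92850396 that was lower in adipose tissue than in liver, with 24.6%, 42.1% and 59.4%. The BPA pools gave 15.1%, 36.6% and 62.6%, and 5 of 5 sites were called again. At the leading Mmp9 site, chr2:164948902, 10.2% of 264 reads were methylated in adipose tissue, 33.7% of 89 in hypothalamus and 9.91% of 222 in liver. Mmp11 was higher in liver 179 to 534 bp after its start (chr10:75931968-75932323), with 7.31%, 6.74% and 21.2%. In the BPA pools this stretch gave 6.93%, 6.97% and 18.4%. Mmp23 had its runs upstream of the start, inside Mib2. At chr4:155654486-155654585 the means were 1.87%, 38.7% and 13.6%, and at chr4:155654958-155655434, with 19 called sites, they were 19.8%, 40.4% and 45.0%. In the BPA pools the second of these gave 20.1%, 38.4% and 38.5%.

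The proteoglycan-cleaving ADAMTS genes held some of the steepest runs. In Adamts15 (chr9:30919767-30919969) 5 sites averaged 14.5%, 55.9% and 78.3%, and 15.2%, 53.6% and 76.0% in the BPA pools. The same 5 sites were called in all 3 comparisons, and at the leading one adipose tissue and liver differed by 63.8 points (95% interval 56.1 to 70.1, adjusted p 2.8e-45, Fisher's exact test). In Adamts4 a run of 10 called sites at chr1:171252634-171252855, higher in liver than in adipose tissue, averaged 65.8%, 72.6% and 90.0%. The BPA pools gave 65.6%, 72.7% and 88.1% there, and 10 of 10 sites were called again. Upstream of Adamts1 at chr16:85804287-85804443, -1174 to -1330 bp from the start, hypothalamus stood apart with 0.741%, 17.4% and 3.15%. The BPA pools gave 0.257%, 26% and 2.67% there. In Adamts20 (chr15:94326114-94326169) adipose tissue averaged 16.1% and liver 76.8% over 5 sites, and the BPA pools of these tissues averaged 21.6% and 62.7%. Hypothalamus had no tested site there.

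Adamts17, an orphan ADAMTS linked to fibrillin matrix, had more runs than any other member, in both directions. At chr7:66846924-66847169 liver was the lowest, with 86.7%, 92.7% and 25.9%, and 86.2%, 89.3% and 35.5% in the BPA pools. The leading site there was methylated in 96.6% of 174 reads in adipose tissue and 17.6% of 136 in liver, 79.0 points apart (95% interval 70.7 to 84.7 in size, adjusted p 5.52e-49, Fisher's exact test). At chr7:67149838-67149947 liver was again the lowest, with 93.8%, 91.2% and 32.4%. In between, liver was the highest at chr7:66867406-66867747 (41.1%, 45.1% and 80.7%) and at chr7:66868365-66868526 (35.8%, 61.1% and 90.4%). The gene mean of Adamts17, 61.0%, 65.0% and 63.6%, shows none of this.

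Of the procollagen N-proteinases, Adamts2 held a run at chr11:50791859-50792172 that was higher in hypothalamus (53.9%, 72.6% and 42.5%), called again at 9 of 9 sites. The COMP-cleaving Adamts7 held 5 sites just outside the gene (chr9:90162562-90162726) with 4.86%, 16.3% and 34.6%, and 5.41%, 22.5% and 35.5% in the BPA pools. Adamts16 was lower in hypothalamus at chr13:70743428-70743719, with 78.5%, 59.9% and 69.2%. Among the inhibitors, Timp2 was lower in hypothalamus over 7 called sites at chr11:118320851-118320980, with 90.1%, 71.8% and 90.6%, and 91.5%, 67.2% and 89.2% in the BPA pools. A further Timp2 run at chr11:118330567-118330648 averaged 62.9%, 81.6% and 95.9%. Timp3 had 1 run, just after its start, with 0.470%, 1.26% and 5.66%, and 2 of its 5 called sites were called again.

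BPA and control were then compared within each tissue. In adipose tissue 26 of 4097 member sites were called in 16 of the 43 genes. With BPA 11 rose and 15 fell. This was 0.635% of member sites, against 0.535% of all tested sites (0.252% higher and 0.283% lower). Of the 39 genes with at least 5 shared sites 41.0% had a called site, against 25.4% of all protein-coding genes, with a median of 99 and 68 tested sites per gene. Among sites at 20 to 80% methylation the shares were 1.5% and 1.26%, and 400 member sites (9.76%) had an unadjusted p under 0.05, against 10.1% of all. Member sites were thus called about as often as sites in general. The differences of the 26 had a median size of 16.2 points and ran from 5.15 to 43.6 points. Squared differences between the adipose pools exceeded counting error by a factor of 1.91 over all sites, against 1.18 in hypothalamus and 1.18 in liver. Scaling p by the adipose factor left 0 of the 26 calls and 0.00213% of all sites. The Fisher calls below therefore hold for these pooled reads only.

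**Figure D4:**
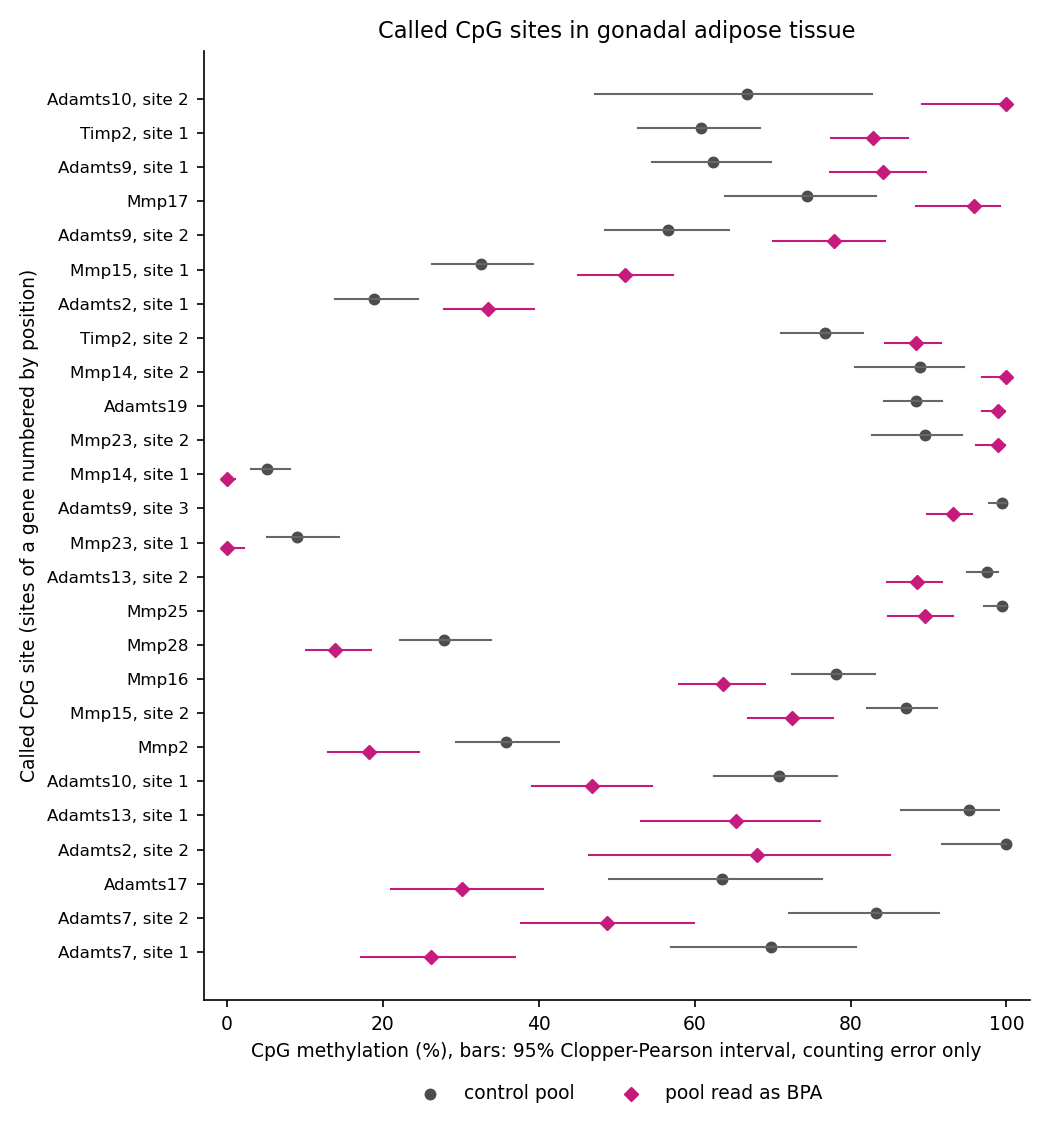
CpG methylation (%, horizontal axis) at the 26 called sites in adipose tissue, ordered by the difference, in the control pool (grey circles) and the BPA pool (magenta diamonds). Bars are 95% Clopper-Pearson intervals for counting error only. The largest gain is at Adamts10 (66.7% to 100%) and the largest loss at Adamts7 (69.8% to 26.2%).

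Of the 26 sites, 23 lie in a gene body and 3 in a flank, and 5 also lie inside another gene. Tested neighbours within 100 bp existed for 24 of them. Summed over the called sites there were 96 neighbours, of which 71 shared the sign of the called site. A neighbour of more than 1 called site was counted each time, and called neighbours were included. The same share over all called sites was not computed. Only Adamts7, Adamts9 and Adamts13 held called sites within 100 bp of each other, 1 pair each. Sites on the same reads are not independent.

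Among the gelatinases, Mmp2 fell at chr8:92850156, from 35.8% of 218 reads to 18.2% of 181, a change of -17.6 points (95% interval -25.8 to -8.83, adjusted p 0.0335, Fisher's exact test). All 3 tested neighbours lay in the same direction, with a median of -9.40 points. The site belongs to the run described above, which was lower in adipose tissue than in liver, and both comparisons use the adipose control pool. Mmp9 had no called site in 110 tested.

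Of the 6 membrane-type MMPs 5 had a called site, all but Mmp24. These genes had a median of 136 tested sites, against 68 for all protein-coding genes, of which 25.4% had a called site. Mmp14 fell at chr14:54432166, 568 bp after its start, from 5.15% of 330 reads to 0% of 344 (upper 95% bound 1.07%, adjusted p 0.00530, Fisher's exact test). It rose at chr14:54439365, from 88.9% of 90 reads to 100% of 117. Mmp15 rose at chr8:95353640, 1344 bp after its start, from 32.6% of 215 reads to 51.1% of 272. At the same Mmp15 site liver went from 56.7% of 150 reads to 74.8% of 139, with an unadjusted p of 0.0013 in Fisher's exact test and an adjusted p of 0.541. Hypothalamus stood at 26.3% and 17.0% there. Mmp15 fell at chr8:95374666, in the flank, from 87.1% to 72.5%. Mmp16 fell at chr4:17926441 from 78.1% to 63.7%, Mmp17 rose at chr5:129606343 from 74.4% to 95.9%, and Mmp25 fell at chr17:23640196 from 99.5% to 89.6%. Together they gave 3 sites that rose and 4 that fell.

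Of the other MMPs, Mmp23 fell at chr4:155655060 from 8.98% of 167 reads to 0% of 171 (upper 95% bound 2.13%), and rose at chr4:155657800 from 89.5% to 98.9%, both in Mib2. Mmp28 (epilysin, an MMP of epithelia) fell at chr11:83442604 from 27.8% of 241 reads to 13.9% of 288. The collagenases, the stromelysins and the remaining MMPs had no called site in adipose tissue.

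The largest fall was in Adamts7, which encodes a protease of cartilage oligomeric matrix protein known from vascular smooth muscle. At chr9:90187197, in the gene body, methylation went from 69.8% of 63 reads to 26.2% of 84, a change of -43.6 points (95% interval -56.5 to -27.7, adjusted p 0.000585, Fisher's exact test). The next called site, chr9:90187226, went from 83.3% of 66 reads to 48.8% of 84. All 3 tested neighbours of the first site, the second among them, were lower in the BPA pool, with a median of -30.5 points. In liver, where 20 to 24 reads covered these sites, the first stood at 90.0% and 87.5% and the second at 90.9% and 95.8%. Hypothalamus did not cover them.

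Adamts13, the protease of von Willebrand factor, fell at chr2:27005186 from 95.2% of 62 reads to 65.3% of 72, and 13 bp away at chr2:27005199 from 97.5% of 280 to 88.5% of 340. Each of these sites had 4 tested neighbours within 100 bp, of which 2 shared its sign. Among the proteoglycan-cleaving ADAMTS, only Adamts9 had called sites. It rose at chr6:92880166 from 62.4% of 165 reads to 84.2% of 146 and at chr6:92880176 from 56.6% to 77.9%, and fell at chr6:92889137 from 99.4% to 93.1%. The first of these sites went from 80% of 25 reads to 95.7% of 23 in hypothalamus (unadjusted p 0.191, Fisher's exact test). In liver it went from 86.0% of 50 to 94.2% of 86 (unadjusted p 0.124, Fisher's exact test). The second went from 84.6% of 26 to 95.7% of 23 in hypothalamus, but from 94.2% of 52 to 92.1% of 89 in liver. The third went from 94.1% to 94.2% in hypothalamus and from 90.3% to 86.5% in liver. Both sites that rose in adipose tissue lie inside Gm15737 as well.

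The procollagen N-proteinase Adamts2 rose at chr11:50622533 from 18.8% of 224 reads to 33.5% of 275, and fell at chr11:50641215 from 100% of 43 reads to 68.0% of 25. Adamts3 and Adamts14 had no called site. Among the orphan ADAMTS, Adamts19 at chr18:58970956 had the smallest adjusted p of all members. It rose from 88.4% of 310 reads to 98.9% of 272, by 10.5 points (95% interval 6.77 to 14.6, adjusted p 0.000315, Fisher's exact test), while its 1 tested neighbour moved by 0.800 points. Adamts17 fell at chr7:66927895 from 63.5% of 52 reads to 30.1% of 93, and all 5 tested neighbours were lower as well, with a median of -22.5 points. Adamts10, a fibrillin-associated protease, fell at chr17:33528030 from 70.8% of 137 reads to 46.8% of 171 and rose at chr17:33531100 from 66.7% of 30 to 100% of 32.

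Among the inhibitors Timp2 rose at both of its called sites. Timp2 is abundant in many tissues and takes part in the activation of Mmp2 by Mmp14. At chr11:118333743 it went from 60.8% of 158 reads to 82.9% of 245, by 22.1 points (95% interval 13.1 to 30.9, adjusted p 0.00266, Fisher's exact test). All 10 tested neighbours within 100 bp were also higher in the BPA pool, with a median of 7.85 points. The site lies inside Cep295nl as well. At chr11:118352804, 2607 bp after the start, it went from 76.7% of 266 reads to 88.4% of 327. The adipose control pool was low over this first stretch beside the other tissues too. At chr11:118333685-118333817 the control means were 64.8%, 81.4% and 84.3% in adipose, hypothalamus and liver, and the BPA means 76.7%, 80.6% and 87.2%, with 2 of 7 sites called again between the BPA pools. Timp3 and Timp4 had no called site in 56 and 6 tested.

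The 26 adipose sites were looked up in the other tissues. In hypothalamus 22 were covered, 11 with the same sign and 11 with the opposite one, and 0 with an unadjusted p under 0.05. In liver 25 were covered, 14 with the same sign and 10 with the opposite one, and only the Mmp15 site had an unadjusted p under 0.05. The median size of the difference at these sites was 3.7 points in hypothalamus and 3.8 points in liver. Of all tested sites, 3.41% in hypothalamus and 4.21% in liver had an unadjusted p under 0.05. The same lookup was not made for the other adipose calls of the whole table, so these counts have no matching share.

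In hypothalamus 0 of 3402 member sites were called, against 0.00599% of all tested sites (0.00299% in each direction, and 0.0238% of those at 20 to 80%), and 102 (3.00%) had an unadjusted p under 0.05, against 3.41% of all. The smallest adjusted p was 0.40 in Fisher's exact test, in Timp2 at chr11:118343397, which went from 5.88% of 17 reads to 68.4% of 19. That difference of 62.5 points has a 95% interval from 31.8 to 79.5 and rests on few reads. Adamts2 at chr11:50791859 went from 79.0% of 138 reads to 94.7% of 95. Adamts1 at chr16:85804524 went from 0% of 100 reads to 10.6% of 104, next to the upstream stretch that set hypothalamus apart. In liver 0 of 3463 member sites were called, against 0.0259% of all (0.0181% higher, 0.0078% lower, and 0.0998% of those at 20 to 80%), and 157 (4.53%) had an unadjusted p under 0.05, against 4.21% of all. The smallest adjusted p was 0.147 in Fisher's exact test, in Mmp9 at chr2:164953795, which went from 42.3% of 331 reads to 27.3% of 300. The authors' deposited credible difference of at least 5 points, used in place of the test, named 142 member sites in adipose tissue, 28 in hypothalamus and 32 in liver, and it named 2.99%, 0.858% and 0.995% of all tested sites. The scaled p also called 0 member sites in hypothalamus and liver, against 0.00344% and 0.0137% of all.

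Whether the BPA difference itself differed between tissues was tested at each site as a difference of log odds ratios (Wald test). Between adipose tissue and liver 1 of 3441 member sites was called, against 0.0499% of all. It lies in Adamts1, at chr16:85800049. Adamts1 encodes a protease of aggrecan and versican. Adipose tissue went from 37.3% of 408 reads to 25.9% of 486, while liver went from 31.1% of 614 reads to 40.7% of 474. The log odds ratios differed by 0.949 (p 9.37e-07, adjusted p 0.00448, Wald test). The scaling of p for excess spread was not applied to the Wald test. Between adipose tissue and hypothalamus 0 of 3383 sites were called (all sites 0.0265%), and 158 had an unadjusted p under 0.05 (all sites 5.39%). Between hypothalamus and liver 0 of 3177 were called (all sites 0.00375%), and 113 had an unadjusted p under 0.05 (all sites 3.66%). The Adamts1 site is not among the 26 called in adipose tissue, and none of those 26 was called here. This does not show that the tissues responded alike.

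**Figure D5:**
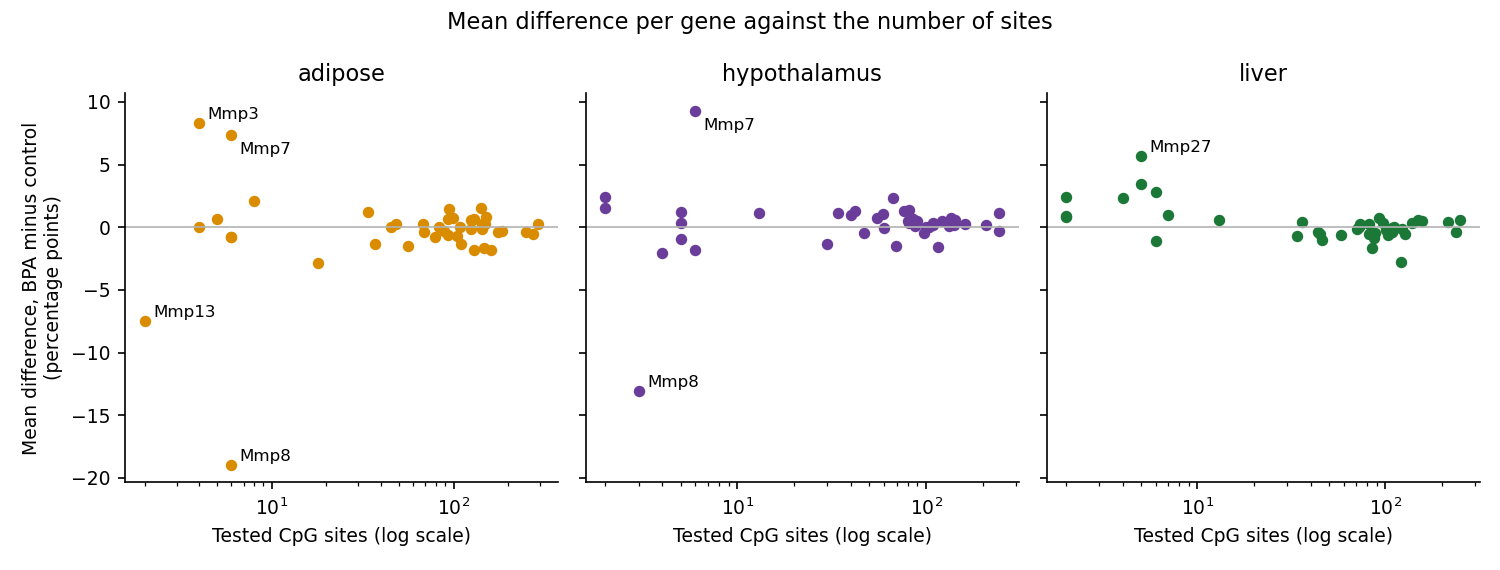
Mean difference per gene between the BPA and control pools (percentage points, vertical axis) against the number of tested sites (horizontal axis, log scale), 1 panel per tissue and 1 point per gene. Genes with many sites lie near 0, and the named genes with mean differences of 5 points or more have 6 sites or fewer.

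Averaged over a gene, the differences were small. The median gene moved by -0.111 points in adipose tissue, 0.362 in hypothalamus and -0.123 in liver, and the median over all protein-coding genes was -0.0539, 0.227 and -0.128 points. Several genes with the largest means were read at few sites in the MMP cluster on chromosome 9. Mmp8, the neutrophil collagenase, averaged -18.9 points over 6 adipose sites. Its site chr9:7560525 went from 100% of 18 reads to 46.2% of 13, with an adjusted p of 0.0757 in Fisher's exact test. At chr9:7560441 Mmp8 went from 83.3% of 30 to 51.9% of 52 reads in adipose tissue (adjusted p 0.186, Fisher's exact test). Hypothalamus went from 78.3% of 23 to 58.5% of 41 there (unadjusted p 0.17, Fisher's exact test). Liver did not fall, with 46.7% of 15 and 50% of 18 reads.

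Mmp7 averaged 7.37 points in adipose tissue and 9.27 in hypothalamus over the same 6 sites, and -1.12 in liver. All 6 sites, from chr9:7701086 to chr9:7701430, lie in the flank beyond the end of Mmp7, and no site inside the gene was tested. At its site chr9:7701138 adipose tissue went from 53.7% of 149 reads to 70% of 180 (adjusted p 0.149, Fisher's exact test). Hypothalamus went from 38.5% of 26 to 65.0% of 40 there, and liver from 53.7% of 82 to 49.5% of 105. Mmp27 averaged 5.68 points over 5 liver sites, all of them higher in the BPA pool, led by chr9:7579007 with 82.2% of 152 and 93.7% of 127 reads (adjusted p 0.846, Fisher's exact test). Mmp10 averaged 3.42 points in liver over 5 sites, Mmp1b -2.86 in adipose tissue over 18, and Adamts3 2.33 in hypothalamus over 67. Timp4 averaged -1.85 in hypothalamus and 2.82 in liver over 6 sites. None of these genes had a called site in any tissue.

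Beyond the family, 36 genes of the same pathway (activators, inhibitors, receptors and substrates of these proteases) gave 25 called sites that rose and 15 that fell in adipose tissue, in 17 genes (47.2%), or 0.905% of 4420 sites. Of all sites 0.535% were called (0.252% higher and 0.283% lower), and 25.4% of all protein-coding genes had a called site. The median number of tested sites per gene was 90 in this list and 68 over all protein-coding genes. Hspg2, the basement membrane proteoglycan perlecan, had 6 that rose and 4 that fell, led by 59.0% to 74.6%. Spock1 (testican, a proteoglycan that affects MMP activation) had 3 of each. Furin, the convertase that activates membrane-type MMPs, rose at 4 sites, led by 47.6% of 21 reads to 100% of 26. Bcan (brevican, a brain proteoglycan cut by ADAMTS enzymes) had 1 that rose and 2 that fell, and Lrp1, the receptor that clears MMPs and TIMP complexes, rose at 2, led by 60.5% to 87.2%. Fn1 (fibronectin) fell at 2, led by 76.5% to 45.2%. In hypothalamus 0 of 3715 sites were called (all sites 0.00599%). In liver 1 of 3858 sites was called (0.0259%, all sites 0.0259%). It lies in Sdc1 (syndecan 1, a shed surface proteoglycan) at chr12:8775312, which rose from 48.7% of 462 reads to 65.5% of 374.

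Marker genes of cell types were read the same way. Liver had the lowest gene mean at 6 of 7 hepatocyte markers, adipose tissue at 4 of 7 adipocyte markers and 5 of 6 endothelial markers, and hypothalamus at 3 of 7 neuron markers. Hypothalamus was lowest at 1 of 5 astrocyte markers, where adipose tissue was lowest at 4, and at 1 of 5 oligodendrocyte markers, where it was highest at 4. Over all protein-coding genes adipose tissue was lowest for 41.0%, hypothalamus for 25.2% and liver for 33.8%. Between BPA and control in adipose tissue, called sites were found in endothelial markers (2 rose and 8 fell of 609 sites), oligodendrocyte markers (0 and 6 of 585) and leukocyte markers (0 and 2 of 183). In hepatocyte markers 3 rose and 0 fell of 187, in neuron markers 4 and 2 of 1388, in astrocyte markers 3 and 2 of 280, in fibroblast markers 3 and 1 of 308, and in adipocyte markers 1 and 1 of 402. Epididymis and testis markers had 0 called of 142. The share called was 1.64% in endothelial, 1.79% in astrocyte, 1.60% in hepatocyte, 1.30% in fibroblast, 1.09% in leukocyte, 1.03% in oligodendrocyte, 0.498% in adipocyte and 0.432% in neuron markers, against 0.535% of all sites (0.252% higher and 0.283% lower). The part of cell makeup in the adipose calls was not tested.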

How the data were processed

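Reduced representation bisulfite libraries of 18 mouse samples in 6 groups were read from 3 tables, 1 per tissue. The authors deposited, per the file headers, a count of all reads and a methylation fraction for each pool of 3 samples, the p-value of a Fisher test between the pools, and a credible difference, a conservative bound on the difference of fractions. Fractions carry 3 significant digits. The submitters' processing notes name BSMAP and the builds GRCm38 and mm10, with no BSMAP version. Every listed site had at least 3 reads in each pool. No values per sample were used, so p-values measure counting error between pools, and levels carry no SD.

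Sites with at least 10 reads in both pools were tested. The deposited p-value was adjusted by Benjamini-Hochberg over all nuclear sites of a table, and a call needed an adjusted p under 0.05 and 5 percentage points. Fisher's exact test was also run between the control pools of each pair of tissues, and differences between tissues by a Wald test on log odds ratios with 0.5 added to each read count. Intervals are Clopper-Pearson for levels and Newcombe for differences, at 95%, for counting error only, since PCR copies were not told apart by molecular identifiers. Calls were tested on simulated reads that held counting error only, so spread between pools beyond counting error was not covered. There 4%, 6% and 4% of changes of 10 points were called for adipose tissue, hypothalamus and liver. For changes of 20 points the shares were 48%, 24% and 40%. Each simulation adjusted p over 100000 sites, of which 200 were changed. The p needed for a call was therefore not that of the real tables, and these shares need not hold for them. Genes named are those with a called site, the 5 members furthest below and above the other tissues, the 3 with the largest mean BPA difference over at least 5 sites, and the promoter windows with the widest ranges, while runs, cluster genes, further low or high genes and the sites with the smallest p were chosen after their values were seen. The members and lists were chosen with earlier results of these data known. Alternatives were other read minimums and difference minimums, gene bodies only, chromosomes 1 to 19 only, without the deepest 0.1% of sites, p scaled for excess spread, the credible difference, 1 added to each read count and a run gap of 1000 bp, the last chosen after seeing the data. Python 3.11.15, NumPy 2.4.6, SciPy 1.17.1, pandas 2.3.3 and matplotlib 3.10.9 were used. One run of sites is not reported here.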

Additional observations from a re-analysis of the deposited data

Results flagged for a closer look

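The BPA difference went in opposite directions in adipose tissue and liver at 1 Adamts1 site, chr16:85800049, and this was the only member site where a test of the difference between tissues passed. The log odds ratios differed by 0.949 (Wald test, adjusted p 0.00448). The site was not called within either tissue. It was 1 of 3441 member sites tested, and 0.0499% of all sites passed the same test. The scaling of p for excess spread, which left 0 of the 26 adipose calls, was not applied to this test.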

How the results depend on the processing

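With p scaled for excess spread, the adipose count went from 26 to 0 called sites, and the counts between control pools went to 27 for adipose and hypothalamus, 48 for adipose and liver, and 25 for hypothalamus and liver (0.914%, 1.29% and 1.3% of all sites). With the authors' credible difference in place of the test, the counts were 142 in adipose tissue (71 higher and 71 lower), 28 in hypothalamus and 32 in liver. Of all sites it named 2.99%, 0.858% and 0.995% in these tissues. The 142 include 23 of the 26 adipose Fisher calls. The other 59 counts stayed within 1.5 times the main one. They include the Fisher counts between BPA and control in hypothalamus and liver, which were 0 in every setting. The Wald counts, also among them, were 0 or 1 in every setting. Counts this small do not show that a result is stable. The 16 leading sites of the called genes were called under the 4 other settings tried for single sites and lost under the scaled p, with adjusted p of 0.426 for Adamts19, 0.552 for Adamts7, 0.925 for Timp2 and 1 for the other 13. No paired analysis was possible because the tables hold 1 pooled value per treatment, and for the same reason no sample could be left out. The largest unadjusted p that was still called over all sites was 0.00028 in adipose tissue, 1.03e-05 in hypothalamus and 1.8e-05 in liver. Member sites in hypothalamus also held fewer reads, so a given difference was harder to call there.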
